A study of Rattus norvegicus with 6 samples.

Results

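Magnesium transporters and channels were examined in regenerated sciatic nerve of male Sprague-Dawley rats. They are 10 named genes (Magt1, Trpm6, Trpm7, Cnnm2, Cnnm3, Cnnm4, Slc41a1, Slc41a2, Slc41a3 and Mrs2), chosen by symbol, and all 10 were found among the 23091 genes of the count table, each as a single entry. The implant group (3 libraries, implant 1 to implant 3) was wild type rats with GDNF-Gel/HA-Mg implanted in a sciatic nerve defect. This conduit holds magnesium and GDNF, the neurotrophic factor first found in a glial cell line. The NC group (3 libraries, NC 1 to NC 3) was wild type rats with the same nerve defect, in which the wound was closed with no implant. The labels give neither the animals' age, nor the time after surgery, nor an arm with the conduit without magnesium or without GDNF, so the parts of the conduit cannot be told apart. Nor do they say whether each library is a different animal, and p-values therefore cover the spread between these 6 samples, which may be technical.

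Magnesium is a cofactor of ATP and of most enzymes that use it, and cells hold it at a steady level by balancing entry, extrusion and storage. Entry across the plasma membrane runs largely through TRPM7 and TRPM6, ion channels that carry a protein kinase at their C-terminal end. Extrusion is ascribed to the SLC41 carriers, relatives of the bacterial transporter MgtE, and to the CNNM proteins, which bind the PRL phosphatases encoded by the Ptp4a genes. MRS2, a relative of bacterial CorA, lets magnesium into the mitochondrial matrix, and MAGT1 is a membrane protein described both as a magnesium transporter and as a subunit of the oligosaccharyltransferase that glycosylates new proteins.

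Promoter windows from RefSeq (build GRCr8, 250 bases before to 50 bases after the annotated start, written 5′ to 3′ on the gene's strand) were found for 8 of the 10 genes. They are shown for Trpm7 and Trpm6, a pair of paralogs of which one had 1529 to 2512 counts a library and the other 2 to 16, and for Cnnm3, one of a pair of neighbouring genes that were highest and lowest in the same libraries. Capitals mark the dinucleotide CG, which reads the same on both strands. Trpm6 has several annotated starts, and the windows of its first and second start are given.
Trpm7 (chr3:134588064-134588363, minus strand): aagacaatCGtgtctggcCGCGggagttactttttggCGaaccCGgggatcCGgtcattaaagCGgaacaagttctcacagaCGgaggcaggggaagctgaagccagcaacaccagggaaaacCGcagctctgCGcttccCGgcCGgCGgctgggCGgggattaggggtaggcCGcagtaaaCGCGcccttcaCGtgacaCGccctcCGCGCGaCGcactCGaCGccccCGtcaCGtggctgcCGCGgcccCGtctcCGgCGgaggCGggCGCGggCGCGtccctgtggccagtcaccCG
Trpm6, first start (chr1:225559278-225559577, plus strand): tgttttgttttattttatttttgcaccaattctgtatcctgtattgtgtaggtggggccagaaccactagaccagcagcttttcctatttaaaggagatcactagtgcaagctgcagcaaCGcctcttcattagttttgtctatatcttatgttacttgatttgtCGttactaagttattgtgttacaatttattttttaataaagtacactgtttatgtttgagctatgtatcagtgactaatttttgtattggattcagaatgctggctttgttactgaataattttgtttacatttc
Trpm6, second start (chr1:225596058-225596357, plus strand): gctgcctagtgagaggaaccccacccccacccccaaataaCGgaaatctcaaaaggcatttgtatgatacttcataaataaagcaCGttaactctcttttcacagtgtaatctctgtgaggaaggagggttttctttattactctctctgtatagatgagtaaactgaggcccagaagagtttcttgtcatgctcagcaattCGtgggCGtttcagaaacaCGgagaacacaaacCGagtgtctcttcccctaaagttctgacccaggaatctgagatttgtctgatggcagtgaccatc
Cnnm3 (chr9:46251015-46251314, plus strand): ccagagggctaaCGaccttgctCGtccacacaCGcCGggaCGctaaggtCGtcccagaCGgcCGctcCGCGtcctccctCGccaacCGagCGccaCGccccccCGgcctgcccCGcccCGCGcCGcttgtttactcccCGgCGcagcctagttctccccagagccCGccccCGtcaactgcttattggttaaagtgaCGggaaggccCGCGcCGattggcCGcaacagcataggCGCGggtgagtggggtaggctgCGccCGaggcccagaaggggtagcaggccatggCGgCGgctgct
The Trpm7 window holds 38 CG dinucleotides, more than 95.5% of the 27457 promoter windows in the table (1 per gene). The Cnnm3 window holds 34, more than 92.7% of them. The first Trpm6 window holds 2, more than 13.1% of all windows, and the second holds 6, more than 41.9%. At least 1 CG was present in 94.8% of all windows. The median was 20 among 10593 genes with a window that passed the filter on low counts here. It was 5 among 3227 genes of the count table with a window that did not pass. Trpm6 is among the genes that passed. Among the members not shown, the windows held 28 (Magt1), 25 (Mrs2), 24 (Cnnm2), 12 and 47 (Slc41a2) and 8 (Slc41a3). Whether CG content bears on the counts of the members was not tested.

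The libraries held 16120508 to 18491375 counts in the implant group and 15897844 to 17990050 in the NC group. The libraries differed in their makeup, and NC 3 stood apart in blood and adipocyte transcripts. Haemoglobin transcripts took 8.08% to 14.9% of the counts of the implant libraries, 1.19% and 1.02% in NC 1 and NC 2, and 25.2% in NC 3. All 7 adipocyte markers were highest in NC 3 too. All 8 tested skeletal muscle markers were highest in implant 3 and lowest in NC 1. Levels are given as CPM, counts per 1000000 of the library size scaled by the trimmed mean of M-values (TMM). The skeletal muscle list summed to 80.7, 1557 and 8048 CPM in the implant libraries and to 27.6, 358.1 and 1293 CPM in the NC libraries. Transcript lengths were not used, so levels of different genes are not ranked against each other.

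The comparison asked whether transcripts of magnesium handling differ in nerve that regenerated with the conduit. For no member was the difference between implant and NC nerves larger than the spread between libraries by the test used. The edgeR quasi-likelihood test called 0 of 10 members at an adjusted p under 0.05, and it called 0 of the 13999 tested genes (0%), so the count for the members equals the background. At an unadjusted p under 0.05 the same test found 0 of 10 members and 241 of all genes (1.72%). DESeq2 called 11 of the 13999 genes (0.0786%), of which 0 were members, and limma-voom called 0. In 0 of 10 members did the CPM of the 3 implant libraries lie wholly above or wholly below that of the 3 NC libraries, a separation seen in 5.69% of all tested genes. Log2 fold changes (implant over NC) were positive for 5 members and negative for 5. Their median was 0.01, against -0.01 over all tested genes. All 10 members passed the filter on low counts, Trpm6 at a mean below 1 CPM in each group.

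**Figure D1:**
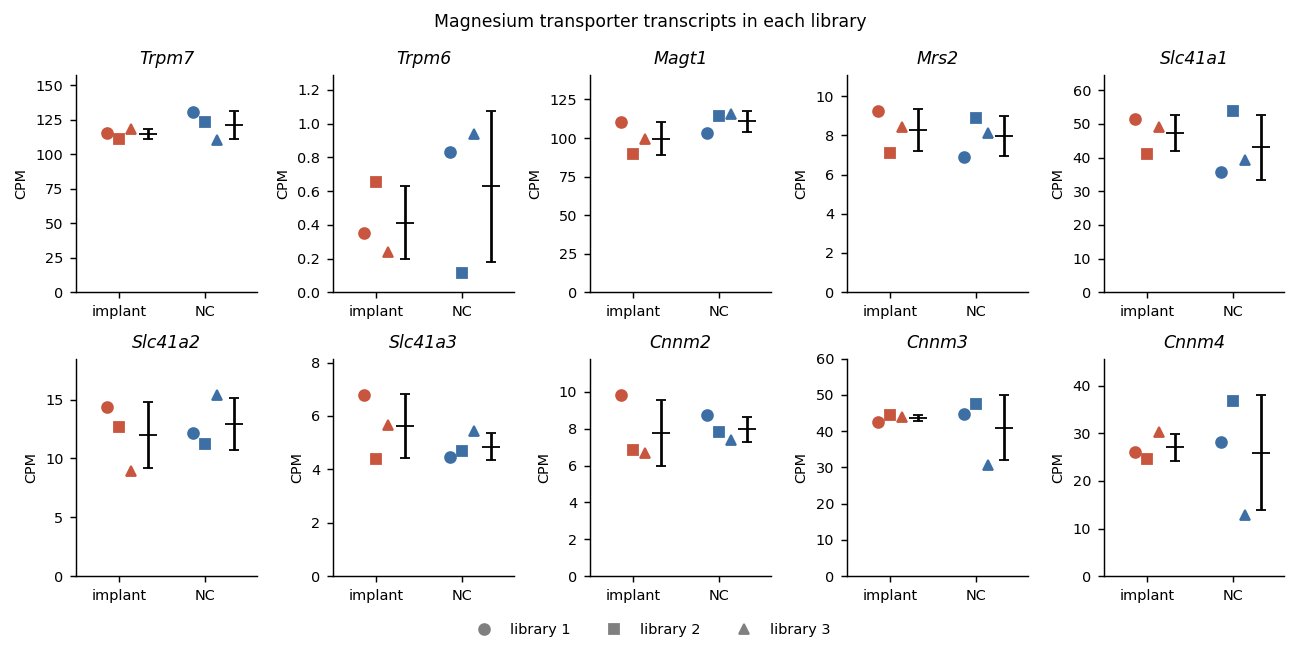
CPM of each member (y axis, from 0, with its own scale per gene) in the 3 implant libraries (red) and the 3 NC libraries (blue), with marker shapes for libraries 1 to 3 and the mean ± SD in black. The groups overlap in every panel, and NC 3 lies lowest for Cnnm3 and Cnnm4.

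**Figure D2:**
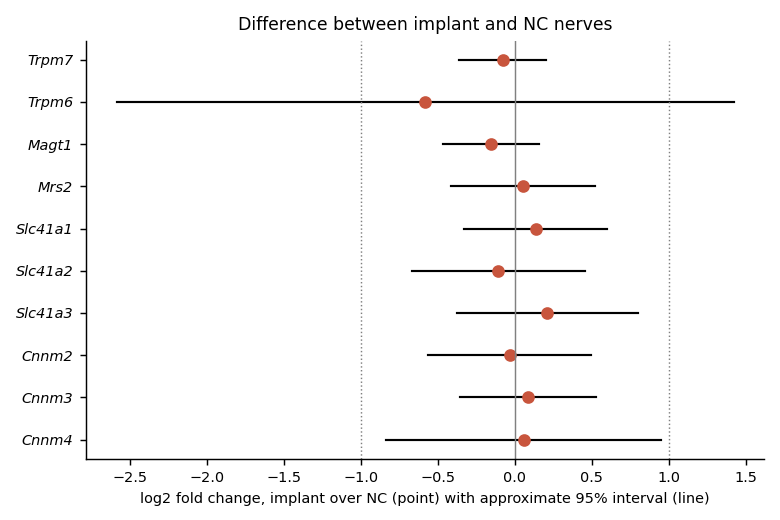
Log2 fold change of each member (points, implant over NC) with its approximate 95% interval (lines), and dotted lines at a fold change of 2 in either direction. Each interval crosses 0, and 9 of 10 lie inside the dotted lines, Trpm6 being the exception.

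The data limit how large a difference could have gone unseen. The approximate 95% interval of the fold change lay inside 2-fold in either direction for 9 of 10 members, against 65.8% of all tested genes. It lay inside 1.5-fold for 5 members (Magt1, Trpm7, Cnnm2, Cnnm3 and Mrs2), against 38.3% of all genes. The median absolute log2 fold change was 0.10 over the members and 0.13 over all tested genes. Trpm6 is the member for which the data allow a large change in either direction.

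Trpm7, the broadly expressed channel-kinase, was the steadiest member. The 3 implant libraries, in their order, had 116, 111 and 118 CPM of it, and the 3 NC libraries had 130.4, 124 and 110.5 CPM. The implant libraries lay within the range of the NC libraries, and the highest library exceeded the lowest by a factor of 1.18. The log2 fold change was -0.08 ± 0.12 (SE), with an interval of -0.36 to 0.20 (edgeR adjusted p 1). The SD of its log2 CPM over the 6 libraries was 0.09, smaller than for most of the 1239 genes within 0.5 log2 units of its mean level, of which 12.1% had a smaller SD.

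Trpm6, the channel-kinase known from kidney tubule and intestine, was near the limit of detection. Its counts were 6, 12 and 4 in the implant libraries, against 16, 2 and 13 in the NC libraries. NC 1 and NC 3 were highest and NC 2 was lowest, so the NC libraries span the implant libraries. Its mean was 0.41 ± 0.22 CPM (SD, n = 3) with the implant and 0.63 ± 0.45 CPM in NC. Its log2 fold change was -0.58 ± 0.82 (SE), with an interval of -2.59 to 1.42 (edgeR adjusted p 1), and with single libraries left out it ranged over -1.08 (without NC 2) to -0.21 (without NC 3). For each 1000 counts of Trpm7 in the same library there were 3.03, 5.88 and 1.99 counts of Trpm6 in the implant libraries, and 6.37, 0.935 and 8.50 in the NC libraries. Because this ratio is taken within a library, it does not depend on the scaling, and its groups overlapped as well.

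Magt1 had the smallest unadjusted p of the 10 (0.271, edgeR). It stood at 110.4, 89.4 and 99.1 CPM in the implant libraries and at 103, 114 and 116 CPM in the NC libraries. Implant 2 and implant 3 lay below all NC libraries, while implant 1 lay above NC 1. The mean was 99.7 ± 10.5 CPM with the implant and 111 ± 6.76 CPM in NC (SD, n = 3 each), a log2 fold change of -0.15 ± 0.13 (SE) with an interval of -0.47 to 0.16 (edgeR adjusted p 1). The 3 tested genes whose log2 CPM followed that of Magt1 most closely over the 6 libraries were Pkn2 (Pearson r 0.988), Ptprm (0.980) and Rasgef1b (0.978), the top of 11512 genes searched. For Trpm6, the member with the widest range, they were Pxdn (0.997), C2cd2 (0.996) and Man2a1 (0.996). With 6 libraries and this many genes searched, these values describe likeness and nothing more.

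Magt1 can be read beside the complex it joins. Stt3b, the catalytic subunit that MAGT1 accompanies, averaged 67.7 ± 1.71 CPM with the implant and 64.5 ± 5.35 CPM in NC, with a log2 fold change of 0.07 ± 0.11 (SE). Tusc3, the paralog that can take the place of MAGT1, averaged 31.5 ± 3.77 and 26.5 ± 6.11 CPM in implant and NC nerves, with a log2 fold change of 0.25 ± 0.20 (SE). Of the 10 listed oligosaccharyltransferase subunits, 8 were in the table and tested, Stt3b included, and the edgeR test called 0 in either direction. Their log2 fold changes were positive for 4 and negative for 4, with a median of 0.00.

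Mrs2, the mitochondrial channel, stood at 9.25, 7.12 and 8.43 CPM in the implant libraries and at 6.91, 8.90 and 8.10 CPM in the NC libraries. The groups spanned nearly the same range. Implant over NC, the log2 fold change was 0.05 ± 0.19 (SE), with an interval of -0.41 to 0.52 (edgeR adjusted p 1). As for Trpm7, few genes of similar level were steadier, since 13.9% of 1791 such genes had a smaller SD over the 6 libraries.

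The SLC41 carriers did not move together. Slc41a1, a sodium-dependent exchanger that extrudes magnesium, stood at 51.4, 41.2 and 49.0 CPM in the implant libraries and at 35.7, 53.9 and 39.4 CPM in the NC libraries. NC 2 was highest and NC 1 lowest. On the log2 scale the difference was 0.13 ± 0.19 (SE), with an interval of -0.33 to 0.60 (edgeR adjusted p 1). Without NC 2, the highest library, it was 0.33 ± 0.15 (SE; edgeR unadjusted p 0.0742, adjusted p 0.963, the lowest over its alternatives). Without NC 1, the lowest library, it was 0.03 ± 0.19 (SE).

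Slc41a2, a carrier of the same family, stood at 14.4, 12.7 and 8.96 CPM in the implant libraries and at 12.2, 11.2 and 15.4 CPM in the NC libraries. Implant 3 was lowest and NC 3 highest. The estimated log2 fold change was -0.11 ± 0.23 (SE), with an interval of -0.67 to 0.46. Slc41a3, which has been described in mitochondria, stood at 6.79, 4.40 and 5.66 CPM in the implant libraries and at 4.46, 4.68 and 5.42 CPM in the NC libraries. Implant 1 and implant 3 lay above all NC libraries and implant 2 below them. The log2 fold change of 0.21 ± 0.24 (SE), with an interval of -0.38 to 0.80, was the largest positive one among the members with all libraries in the fit (edgeR adjusted p 1 for both genes). With single libraries left out it ranged over 0.06 (without implant 1) to 0.36 (without implant 2). Without NC 2 it was 0.18, below Cnnm4 (0.39), Slc41a1 (0.33) and Cnnm3 (0.21). Without implant 1 it was likewise below Cnnm3 (0.12), Cnnm4 (0.09) and Slc41a1 (0.08). Without NC 1 it was 0.1667, below Cnnm3 (0.1723).

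Among the 3 CNNM members, Cnnm4 differed most between libraries. Cnnm4, whose product extrudes magnesium from epithelial cells and is mutated in Jalili syndrome in humans, stood at 26.2, 24.7 and 30.2 CPM in the implant libraries. In the NC libraries it stood at 28.1, 36.8 and 12.9 CPM. The NC libraries thus held both extremes, 2.85-fold apart, and the implant libraries lay between them. The mean was 27.0 ± 2.89 CPM with the implant and 26.0 ± 12.1 CPM in NC (SD, n = 3 each), and the log2 fold change was 0.06 ± 0.37 (SE), with an interval of -0.84 to 0.95 (edgeR adjusted p 1). Of 2748 tested genes within 0.5 log2 units of its mean level, 86.3% had a smaller SD over the 6 libraries.

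Cnnm3, the PRL-binding neighbour of Cnnm4, stood at 42.6, 44.3 and 43.8 CPM in the implant libraries and at 44.7, 47.6 and 30.7 CPM in the NC libraries. As for Cnnm4, NC 2 was highest and NC 3 lowest. The log2 fold change was 0.09 ± 0.18 (SE), with an interval of -0.35 to 0.53 (edgeR adjusted p 1). In RefSeq the genes are direct neighbours on chromosome 9, with no other protein-coding gene between their starts. Strand is not marked by the library kit, and reads of overlapping or antisense transcripts therefore cannot be told apart. Cnnm2, which acts in kidney and brain and is mutated in inherited hypomagnesaemia in humans, did not share this order. It stood at 9.83, 6.85 and 6.66 CPM in the implant libraries and at 8.72, 7.80 and 7.37 CPM in the NC libraries, with implant 1 highest, and a log2 fold change of -0.03 ± 0.22 (SE).

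The low value of Cnnm4 in NC 3 did not depend on the scaling. For each 100 counts of Magt1 in the same library, Cnnm4 had 23.7, 27.6 and 30.5 counts in the implant libraries, and 27.3, 32.3 and 11.2 in NC 1, NC 2 and NC 3. Cnnm3 had 38.6, 49.6 and 44.2 counts per 100 of Magt1 in the implant libraries, and 43.3, 41.7 and 26.6 in the NC libraries. Cnnm4 was also low relative to its neighbour there. It had 61.4, 55.6 and 69.0 counts per 100 of Cnnm3 in the implant libraries, against 63.0 and 77.4 in NC 1 and NC 2 and 42.1 in NC 3. Without NC 3 the direction turned for both genes, with a log2 fold change of -0.26 ± 0.17 (SE) for Cnnm4 and -0.08 ± 0.10 for Cnnm3 (edgeR adjusted p 1).

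**Figure D3:**
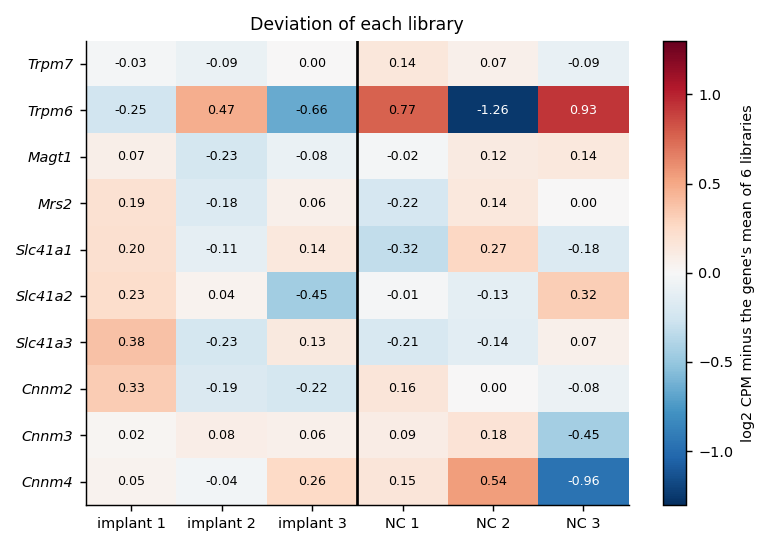
Log2 CPM of each member (rows) in each library (columns, implant left of the line and NC right of it) minus the mean of the gene over the 6 libraries, from blue (below) to red (above). Cnnm4 in NC 3 stands at -0.96 and Cnnm3 at -0.45, while no Trpm7 value is farther than 0.14 from its mean.

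Some Schwann cell markers were low in the same library. Sox10, which sets Schwann cell identity, had 179, 122 and 161 CPM in implant libraries, while NC libraries had 154, 243 and 21.8 CPM. Erbb3, the neuregulin receptor of Schwann cells, stood at 167, 135 and 182 CPM in the implant libraries and at 194.5, 245 and 66.9 CPM in the NC libraries. Both were highest in NC 2 and lowest in NC 3, as were Cnnm4 and Cnnm3. Of the 6 Schwann lineage markers tested, 4 were lowest in NC 3, the library in which 24.8% of all tested genes were lowest, and 3 were highest in NC 2. The others went another way. S100b, a calcium-binding protein of Schwann cells that adipocytes also make, had 361, 190.4 and 331 CPM in the implant libraries and 219, 752 and 571 CPM in the NC libraries, so that NC 3 was above every implant library. Gap43, a growth-associated gene of regenerating axons and immature Schwann cells, was lowest in NC 2, at 8.84 CPM, against 17.1 CPM in NC 3. The list summed to 1055, 954 and 832 CPM in the implant libraries and to 1172, 1442 and 735 CPM in the NC libraries, and no marker was at 0 in any library. The 7 adipocyte markers summed to 1935 to 3065 CPM in the implant libraries and to 3658, 1611 and 11150 CPM in the NC libraries. The part of these cell types in the Cnnm4 and Cnnm3 values was not tested. In these bulk samples fewer cells of a type and less RNA per cell cannot be told apart.

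By rank alone, the 3 libraries high in myelin transcripts were the 3 highest for Slc41a1 and Mrs2 and the 3 lowest for Trpm6. The other members did not rank this way. For Mrs2 the libraries were not set apart, with 8.43 CPM in implant 3 against 8.10 CPM in NC 3. This split was picked out after the values were seen. The share of all tested genes that split the libraries in this way was not worked out. Transcripts of Mbp (myelin basic protein) had 2526, 266 and 3085 CPM in the implant libraries, against 295, 6100 and 419.7 CPM in the NC libraries. Cldn19, a claudin of tight junctions that serves magnesium reabsorption in kidney and is also a Schwann cell protein, is counted both among the myelin markers and among the magnesium carriers and channels described further on. It stood at 114, 3.15 and 151 CPM in the implant libraries and at 3.32, 249 and 13.9 CPM in the NC libraries. Implant 1, implant 3 and NC 2 were thus the high libraries for myelin, and the same 3 libraries had the highest Slc41a1, the highest Mrs2 and the lowest Trpm6. All 6 myelin markers, Cldn19 included, were highest in NC 2, and the list summed to 7469, 679.8 and 8886 CPM in the implant libraries and to 724, 17960 and 1307 CPM in the NC libraries. Since the myelin values fall into separate clusters of libraries, no correlation is given, and the part of myelinating cells in the Slc41a1, Mrs2 and Trpm6 values was not tested. Trpm6 rests here on 2 to 16 counts a library.

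**Figure D4:**
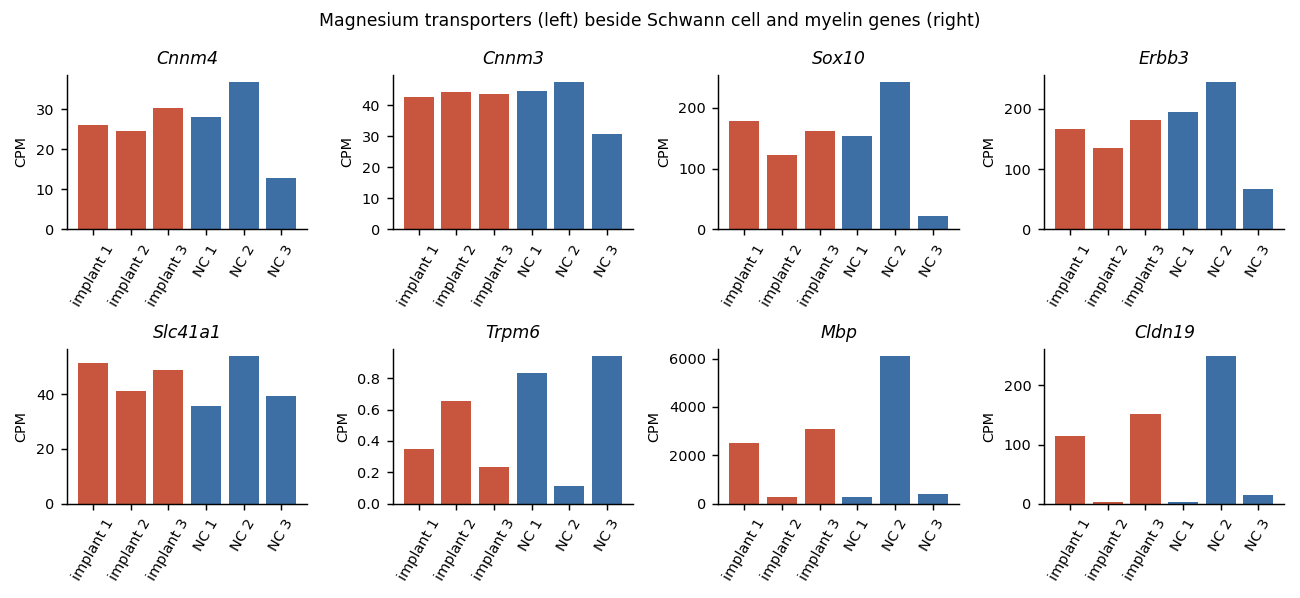
CPM (y axes, from 0) in the 3 implant libraries (red) and the 3 NC libraries (blue) of Cnnm4, Cnnm3, Slc41a1 and Trpm6 (left) beside the Schwann lineage genes Sox10 and Erbb3 and the myelin genes Mbp and Cldn19 (right). The top row is lowest in NC 3 for all 4 genes, and in the bottom row implant 1, implant 3 and NC 2 are the 3 highest libraries for Slc41a1, Mbp and Cldn19 and the 3 lowest for Trpm6.

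**Figure D5:**
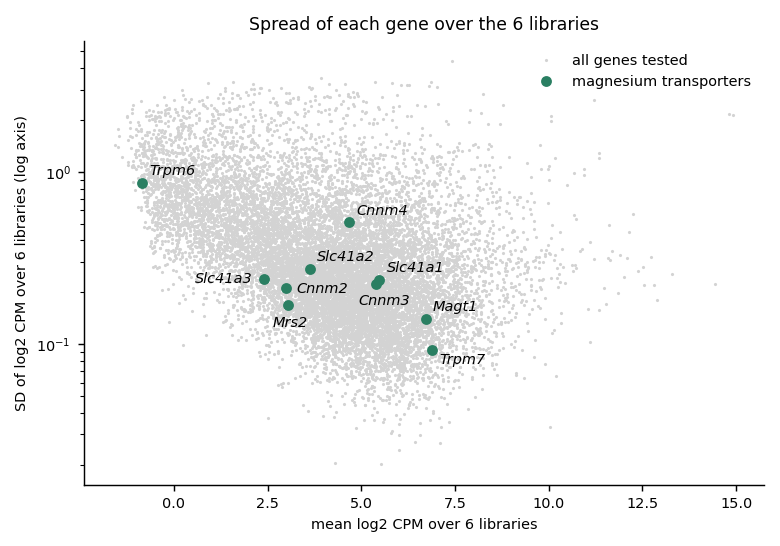
SD of log2 CPM over the 6 libraries (y axis, log scale) against mean log2 CPM (x axis) for the 13999 tested genes (grey) and the 10 members (green). Cnnm4 lies high for its level, with an SD of 0.51, and Trpm7 low, with an SD of 0.09.

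Other genes were examined from lists of carriers and channels, regulators and partners. The list of carriers and channels was drawn widely and also holds family relatives of the TRPM members (Trpm2, Trpm3 and Trpm4), so its counts and median are not those of magnesium carriers alone. Of 39 listed genes in the table, 35 passed the filter on low counts and the edgeR test called 0 (all genes: 0%). Log2 fold changes were positive for 17 and negative for 18. Among 12 tested carriers and channels the median was -0.02, and among 9 tested regulators -0.07. Nipa1, a magnesium transporter mutated in human spastic paraplegia, averaged 47.8 ± 9.54 CPM with the implant and 55.5 ± 19.98 CPM in NC. Its relative Nipa2 averaged 28.3 ± 0.725 and 27.8 ± 6.20 CPM in implant and NC nerves. Mmgt1, which encodes a subunit of the endoplasmic reticulum membrane complex that has been linked to magnesium transport, averaged 38.9 ± 4.22 CPM with the implant and 42.4 ± 7.30 CPM in NC. Tmem94, linked to magnesium uptake into the endoplasmic reticulum, averaged 34.2 ± 2.45 CPM with the implant and 32.2 ± 3.76 CPM in NC (SD, n = 3 each). Cnnm1, the fourth CNNM gene, had 3 to 9 counts in the implant libraries and 7 to 13 in the NC libraries and did not pass the filter on low counts.

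The regulators of the CNNM proteins were likewise not called. Ptp4a1, Ptp4a2 and Ptp4a3, which encode the PRL phosphatases, had log2 fold changes of -0.27 ± 0.21, 0.04 ± 0.20 and 0.12 ± 0.19 (SE). Ptp4a2 stood at 158, 173.5 and 178 CPM in the implant libraries and at 144, 139 and 212 CPM in the NC libraries, and Ptp4a1 at 74.2, 83.4 and 67.3 CPM in the implant libraries and at 85.0, 70.6 and 116.5 CPM in the NC libraries. Both were highest in NC 3, which was the highest library for 4 of the 9 tested genes on the list of regulators. That list covers regulators of magnesium transporters at large, not of CNNM proteins alone. Ptp4a3 was highest in implant 3, at 30.7 CPM, against 27.1 CPM in NC 3. The share of all tested genes that were highest in NC 3 was not worked out. Arl15, a small GTPase that binds CNNM proteins, had a log2 fold change of -0.09 ± 0.14 (SE). Of 6 listed substrates of the TRPM7 kinase, all were tested, 0 were called, and the median log2 fold change was 0.04.

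Trpm2 was the only one of the 35 with an edgeR unadjusted p under 0.05, a threshold that 1.72% of all tested genes also met. It was named after its values were seen. It encodes a calcium-permeable channel of leukocytes and is not known as a magnesium carrier. It stood at 11.8, 11.1 and 10.1 CPM in the implant libraries and at 8.05, 6.18 and 5.28 CPM in the NC libraries. All implant libraries lay above all NC libraries, as in 2.81% of all tested genes (2.88% lay wholly below). Its log2 fold change was 0.76 ± 0.21 (SE; edgeR unadjusted p 0.0105, adjusted p 1), and DESeq2 gave an adjusted p of 0.759, the lowest over its alternatives. The 6 neutrophil markers summed to 254, 370.4 and 318 CPM in the implant libraries and to 73.3, 59.6 and 310.4 CPM in the NC libraries. All 6 had positive log2 fold changes, with a median of 1.09. In NC 3, where Trpm2 was lowest, S100a9 alone gave 177 CPM of the sum. The other markers apart from Ncf1 were likewise higher in NC 3 than in NC 1 and NC 2. Csf3r was among them, at 25.5, 41.5 and 21.8 CPM in the implant libraries and at 8.15, 4.91 and 21.6 CPM in the NC libraries. Ncf1, a subunit of the phagocyte NADPH oxidase, was the only 1 of the 6 that was lowest in NC 3, as Trpm2 was. It had 76.2, 38.9 and 66.3 CPM in the implant libraries, against 31.6, 33.2 and 30.9 CPM in the NC libraries, lowest in NC 3 (edgeR unadjusted p 0.0104, adjusted p 1). In the implant libraries the 8 macrophage markers summed to 940.5, 1206 and 1304 CPM. The sums were 1020, 872 and 1592 CPM in the NC libraries. Macrophage markers had positive log2 fold changes for 4 and negative for 4, with a median of -0.01. The part of neutrophils and macrophages in the Trpm2 difference was not tested.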

How the data were processed

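Messenger RNA of rat sciatic nerve was sequenced in 6 libraries after oligo(dT) selection with a NEBNext Ultra RNA kit, per the labels' protocols. Tools listed without roles in the submitters' processing notes are DESeq2, StringTie 1.3.1, HISAT2 and Bowtie2 2.2.8. Counter, annotation and genome build: not given in the sources used here. Values are estimated counts (expected counts) per gene as deposited by the authors, and 1898 to 2085 in each library are not whole. They were rounded to whole numbers. Columns were matched to samples by name, those named Gel_HA-Mg to the GDNF-Gel/HA-Mg group, and groups came from the titles. By chi-square of counts, all pairs of libraries differed by more than sampling noise.

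The 13999 genes kept by filterByExpr were scaled by TMM and tested in edgeR 4.0.16 (R 4.3.3; quasi-likelihood, two-sided, no covariate), with Benjamini-Hochberg adjustment over all tested genes and a threshold of 0.05. The SE is the log2 fold change over the root of F, so 95% intervals are approximate. Log2 CPM used a prior count of 2. The test was also run on simulated counts with known changes, drawn gene by gene from dispersions fitted to these libraries. Variation that genes share, as through tissue content, was not simulated, so that run does not cover it. Alternatives were RLE and upper quartile scaling, DESeq2 1.42.0, limma-voom (limma 3.58.1), other filters, a replicate block, haemoglobin genes left out, and each library left out.

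Members and gene lists were chosen with earlier results of these data known. All members are named, with a set of related genes and markers chosen by name. For the member with the smallest p and the one with the widest range, the 3 genes most alike by Pearson r are named, out of those whose mean log2 CPM reached 2. Trpm2, Trpm3, Trpm4, Erbb3, Cldn19, S100b, Gap43, S100a9 and Ncf1 were named after their values were seen. 1 myelin marker of the lists is not reported here. Sequences and gene neighbours are from RefSeq (GRCr8). Figures were drawn with matplotlib 3.10.9.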

Additional observations from a re-analysis of the deposited data

How the results depend on the processing

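The edgeR test called 0 members and 0 related genes under all the alternatives that were run, and DESeq2, which called 11 of all genes where edgeR called 0, called 0 of either. Of 139 log2 fold changes of members under an alternative, 129 kept their direction and 10 turned, all 10 when 1 library was left out. With single libraries left out, the log2 fold changes that turned in at least 1 run ranged over Cnnm2 (-0.2265 to 0.0642), Cnnm3 (-0.0829 to 0.21), Cnnm4 (-0.26 to 0.39), Mrs2 (-0.0253 to 0.16) and Slc41a2 (-0.2462 to 0.0642). Of 154 for the 11 related genes followed one by one, 8 turned, again with 1 library left out: Arl15 (-0.13 to 0.0166), Mmgt1 (-0.22 to 0.0090), Nipa1 (-0.39 to 0.11), Nipa2 (-0.12 to 0.20), Ptp4a2 (-0.0679 to 0.26), Ptp4a3 (-0.0209 to 0.26) and Tmem94 (-0.0052 to 0.17). With haemoglobin genes left out, none of the 10 members and none of these 11 genes turned. Trpm6 was not tested under the filter that asks for 1 CPM or more in 3 or more libraries. The replicate numbers were not used to pair the samples. Deviations of same-numbered libraries correlated at 0.099, -0.718 and 0.0553, and 0 of 3 implant libraries matched their own number best. With 3 libraries an arm that differ this much in makeup, this check cannot settle whether the numbers mark pairs. The fit with the replicate block called 0 genes. Where an arm was left with 2 libraries, the spread was pooled over both groups. Counts of 2 to 16 limit Trpm6.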
